A study of Mus musculus with 4 samples.

Results

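The ubiquitin-specific protease (Usp) genes were examined for binding of their RNA by MOV10, a helicase found together with Argonaute proteins in microRNA silencing. The 56 members were the protein-coding RefSeq genes of the mouse build GRCm38.p6 whose symbol is Usp followed by a digit, out of 21900 protein-coding genes in that annotation. Their peaks were those of a deposited eCLIP list with the midpoint in the span of a member, 97 of 12236 peaks. The eCLIP method fixes proteins to the RNA they touch with ultraviolet light, pulls down one of them and sequences its RNA fragments beside an input sample. Each peak carries the authors' fold of immunoprecipitate over input, given below as its log2 enrichment, and a −log10 p, as far as the columns of a list without a header could be read from their values. The series held 2 libraries of anti-MOV10 immunoprecipitates and 2 input libraries, all from N2A cells, a mouse neuroblastoma line grown in serum-containing medium, with no genetic change or drug given in the labels. Each peak had 1 value over all libraries, so no value below has a replicate error, the sequencing depth is unknown, and the neuroblastoma identity of the cells could not be checked on marker genes. In the absence of a genome sequence the letters of the bound sites were not read.

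Ubiquitin-specific proteases are the largest family of deubiquitinases, enzymes that remove ubiquitin from proteins or trim ubiquitin chains. They counteract ubiquitin ligases, and so bear on which proteins reach the proteasome, on receptor sorting in endosomes and on the state of ubiquitinated histones. Several need a partner protein for full activity. The measurements here concern the mRNAs of these enzymes, not the proteins. The name covers 1 gene of another kind, Usp6nl, which encodes a GTPase-activating protein for Rab5 and no protease.

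By position alone, 11 of the 56 genes (19.6%) held a peak midpoint, against 8.53% of all coding genes, 1868 of 21900. The family has long genes, with a median span of 48000.5 nt against 17146 nt for all coding genes. With shorter genes than 15 kb left out, 11 of 45 Usp genes (24.4%) held a midpoint, against 13.2% of 11784 coding genes. The abundance of the transcripts in the cells was not known, and its part in these shares was not tested. The list starts at a log2 enrichment of 3.001 and a −log10 p of 3.005, and its name carries the replicate filter IDR. A gene without a peak may therefore still carry weaker or less reproducible binding.

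For 2 of the 11 genes all peaks lay in a second gene on the strand of the peaks. Some peaks of Usp22 and Usp34 also lay in a second gene, but one on the strand opposite to the peaks, as given below. Usp37, whose protein stabilises cyclin A, lies on the minus strand of chromosome 1 (74435510 to 74544286), while its 2 peaks, at 74529450 to 74529508 and 74530005 to 74530024, are on the plus strand. Both fell 827.5 to 1363 nt before the 3′ end of Cnot9, a plus-strand gene of the CCR4-NOT deadenylase complex that lies inside the Usp37 span. Usp44, which encodes a deubiquitinase of the mitotic spindle checkpoint, held 1 minus-strand peak on chromosome 10 (93859187 to 93859285, log2 enrichment 3.67). That peak also lay in the minus-strand gene Metap2, a methionine aminopeptidase gene, and was 1 of its 9 peaks, of which the other 8 followed within 3 kb outside Usp44. The strand of Usp44 itself was not in the tables used here.

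Read by strand, 9 Usp genes held 94 peaks. A peak was kept where it lay on the strand of the gene, or, for genes of unrecorded strand, where no other gene of the peak's strand covered it. On these terms 16.1% of the Usp genes held a peak, against 8.22% of all coding genes. In genes of at least 15 kb the shares were 20% and 12.8%. The strand filter was sharp in the list as a whole, since 8762 of 8775 single-gene peaks in coding genes of recorded strand (99.9%) lay on the strand of the gene. All values below refer to these 94 peaks.

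The peaks were concentrated in few members. Usp31 held 41, Usp34 held 18 and Usp12 held 16, and the other 6 genes held 19 together. Usp31 and Usp12 accounted for 57 peaks, 60.6% of the total. The median was 5 peaks in the 9 Usp genes and 3 in the 1800 coding genes with strand-matched peaks, and 3 Usp genes (33.3%) had a single peak, against 28.7% of all coding genes. By number of peaks Usp31 ranked 20th, Usp34 143rd and Usp12 182nd among the 1800 genes. These ranks count touching peaks separately. With touching peaks joined, Usp31 held 25 intervals, Usp34 13 and Usp12 10, and no rank was taken on that count.

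By enrichment over input the Usp genes stood near or below the coding genes in general. The strongest peak per gene had a median log2 enrichment of 3.83 over the 9 Usp genes and 3.84 over all 1800 genes. Peak by peak the medians were 3.61 for the 94 Usp peaks and 3.71 for 11952 pairs of peak and coding gene. A log2 enrichment of at least 4 was listed for 22 Usp peaks (23.4%), against 33.5% over all coding genes. Of those 22, 18 were in Usp31, 3 in Usp12 and 1 in Usp32. The −log10 p had a median of 10.4 in Usp peaks and 10.2 over all coding genes, and its highest Usp value was 37.9, far from the 400 at which the list stops.

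**Figure D1:**
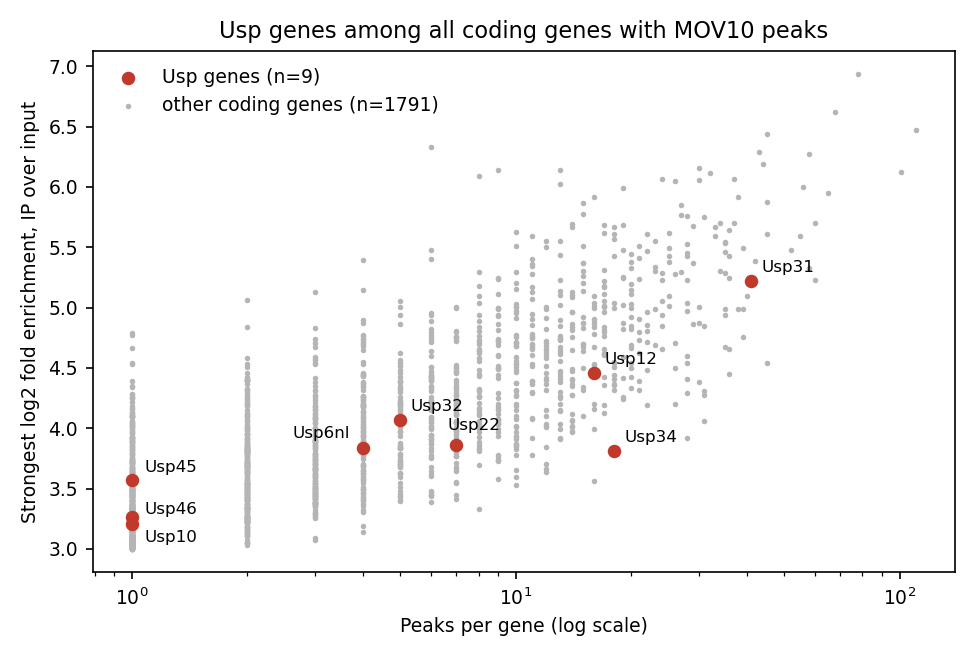
Peaks per gene (log axis) against the strongest log2 enrichment (immunoprecipitate over input), for 9 Usp genes (red, named) and the other coding genes with strand-matched peaks (grey). Usp31 lies far to the right at 41 peaks and 5.22, and Usp34 lies at 18 peaks and 3.81.

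Usp31 held the most peaks and the strongest peak of the family. Its protein has been reported to restrain NF-κB signalling in human cells. The gene lies on the minus strand of chromosome 7 (121642021 to 121707461), in a region with no second annotated gene. All 41 peaks fell 82 to 6061 nt before its 3′ end, although the gene spans 65441 nt. They formed 25 separate intervals when touching peaks were joined, and covered 2482 of 6018 nt (41.2%) between the first and the last. The strongest peak, at 121646519 to 121646590, had a log2 enrichment of 5.22, a 37.3-fold excess over input, and a −log10 p of 37.9.

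The Usp31 peaks fell into a nearer and a farther stretch. A peak-free stretch of 916 nt (121644192 to 121645107) lay between them, the only one of over 500 nt among these peaks. The 14 peaks on the near side lay 82 to 2114.5 nt before the 3′ end, and the 27 on the far side lay 3124.5 to 6061 nt from it. The median log2 enrichment was 4.08 in the near stretch and 3.82 in the far one. Each stretch had its own summit. In the near stretch it was a pair of touching peaks at 121643162 to 121643277, with log2 enrichments of 4.69 and 5.14. In the far stretch it was a run of 5 touching peaks at 121646414 to 121646634, which held the strongest peak of the gene with 4.89 and 4.63 on either side of it.

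Beyond that run, the third peak above 5 in Usp31 was at 121647822 to 121647882, 5831 nt before the 3′ end, with 5.09. By distance, the median reached 4.20 for the 8 peaks from 1 to 2 kb and 4.17 for the 11 peaks from 4 to 5 kb. It was 3.37 for the 5 peaks from 3 to 4 kb and 3.74 for the 10 peaks from 5 to 6 kb. Enrichment in Usp31 was thus highest in separate places along the last 6 kb and lower between them.

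**Figure D2:**
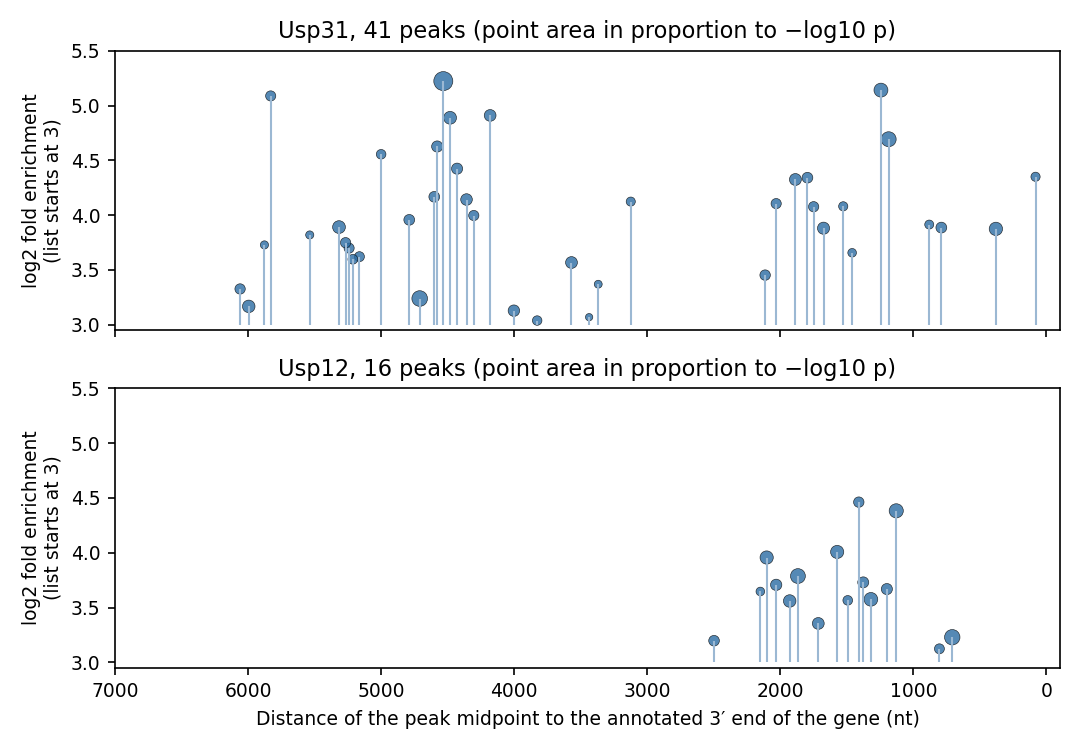
Each peak of Usp31 (top) and Usp12 (bottom) by distance of its midpoint to the annotated 3′ end in nt, with its log2 enrichment (immunoprecipitate over input) and a point area in proportion to its −log10 p. Usp31 has summits of 5.14 at 1244 nt and 5.22 at 4533.5 nt on either side of a peak-free stretch of 916 nt, and the Usp12 peaks form 1 block between 708 and 2498.5 nt.

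Usp12 and Usp46 are close paralogs that gain activity from the WD-repeat proteins Wdr48 and Wdr20. Usp1 shares the partner Wdr48. Their transcripts differed in the list. Usp12, on the minus strand of chromosome 5 (146734809 to 146794956), held 16 peaks at 708 to 2498.5 nt before its 3′ end. These peaks covered 1176 of 1922 nt (61.2%), a larger share of their stretch than in Usp31. The log2 enrichment reached 4.46 at 146736203 to 146736236 and 4.38 at 146735901 to 146735975, with a median of 3.66. The Usp12 peaks had the highest median −log10 p of the family, 14.1, against 11.5 in Usp31, and the lowest of them was 7.86.

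Usp46 is on the minus strand of the same chromosome (73998726 to 74068411). It held 1 peak, at 74000833 to 74000932, 2156.5 nt before the 3′ end. Its log2 enrichment was 3.27 and its −log10 p 3.56, near the lower limit of the list in both. Usp1, whose protein acts on the Fanconi anaemia protein Fancd2, had no peak, and neither did the partner genes Wdr48 and Wdr20. Reads shared between Usp12 and Usp46 through similar sequence were not tested, since the list gives no reads.

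Usp34 differed from the other members in where its peaks lay. The gene encodes a very large deubiquitinase reported to act on axin in Wnt signalling in human cells, and runs on the plus strand of chromosome 11 (23303185 to 23490560). Of its 18 peaks, 5 were in the last 5 kb and 13 lay between 6457.5 and 117167.5 nt away. The 13 distant peaks were spread over 10 places separated by 2644 nt or more, the farthest at 23373374 to 23373411. That farthest peak had a −log10 p of 3.56, near the lower limit of the list. The nearest of the distant peaks, at 23484101 to 23484104, was only 4 nt wide. The peak nearest to the 5′ end was still 70207.5 nt from it, in a gene of 187376 nt.

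The Usp34 peaks had log2 enrichments between 3.04 and 3.81, with a median of 3.22, against 3.71 over all coding genes. The 5 peaks near the 3′ end had a median log2 enrichment of 3.35, with a range of 3.06 to 3.66, and 3.22 for the 13 distant ones, with a range of 3.04 to 3.81. The strongest, 3.81 at 23464449 to 23464501, lay 26085 nt before the 3′ end and had a −log10 p of 3.75. The best-supported, at 23489397 to 23489496, lay 1113.5 nt before the 3′ end with a −log10 p of 15.7 and a log2 enrichment of 3.66. No other Usp34 peak had a −log10 p above 8.70. The median −log10 p was 5.94 for the 5 peaks near the 3′ end and 4.66 for the 13 distant ones. For comparison, the 1450 peaks beyond 5 kb in all coding genes had a median log2 enrichment of 3.71.

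Among the 221 coding genes with at least 15 peaks, a limit set after the values were seen, Usp34 had the lowest median log2 enrichment, and 1 other gene had a lower strongest peak. That limit counts touching peaks separately, and joining them leaves Usp34 with 13 intervals. In 13 of the 221 genes, Usp34 included, at least as large a share of the peaks lay beyond 5 kb, while in 134 of them all peaks lay within 5 kb. A distance of at least 100 kb between the outermost peaks was found in 8 of the 1800 genes, 1 of them Usp34. In Usp34 that distance, 116054 nt, rests on the farthest peak alone, which had a −log10 p of 3.56. The next farthest peak lay 84615.5 nt before the 3′ end, and the farthest with a −log10 p of at least 5 lay at 58275 nt. The 4 Usp34 peaks nearest to the 3′ end lay in a stretch shared with Ahsa2, a co-chaperone gene on the minus strand, whereas the peaks were on the plus strand. Whether the distant peaks were in exons or introns was not determined, as the annotation used gave gene spans only.

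**Figure D3:**
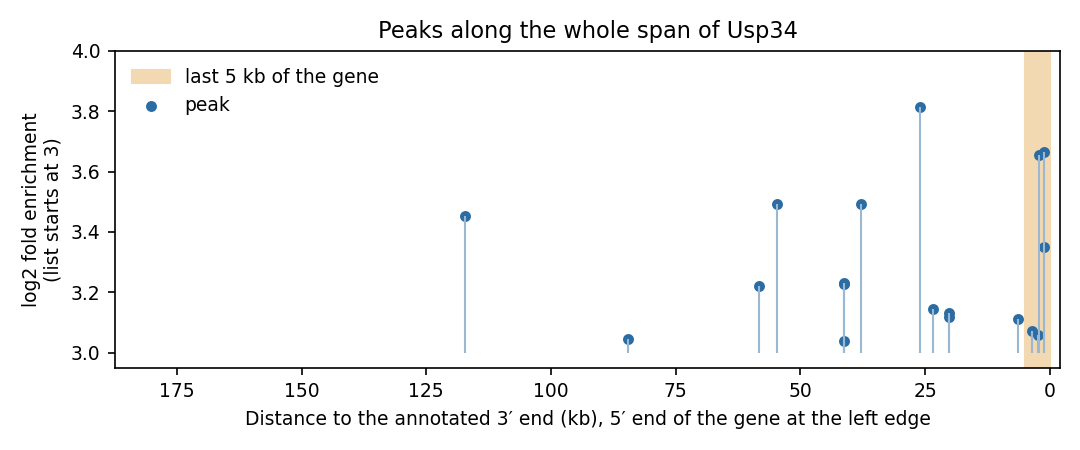
The 18 peaks of Usp34 by distance of the midpoint to the annotated 3′ end in kb, over the whole span of the gene, with the log2 enrichment (immunoprecipitate over input). The shaded last 5 kb holds 5 peaks, and the other 13 lie up to 117167.5 nt away at values of at most 3.81.

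Usp22, the deubiquitinase of the SAGA coactivator complex that acts on histone H2B, held 7 peaks. They lay on the minus strand of chromosome 11 at 304 to 1621 nt from the gene's lower coordinate (gene 61151781 to 61175059), which was taken as the 3′ end from the strand of the peaks. The strongest, 3.86, was at 61152727 to 61152872 with a −log10 p of 13.1, and the next, 3.78, was at 61152181 to 61152306. Of the 7 midpoints, 6 fell where Tnfrsf13b, a plus-strand receptor gene of B cells, overlaps the end of Usp22, and 1 fell in Usp22 alone. An assignment that uses only single-gene peaks therefore leaves Usp22 with 1 peak, at 61153370 to 61153434 and a log2 enrichment of 3.22.

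Of the genes of membrane traffic, Usp32 and Usp6nl held peaks. Usp32, whose protein deubiquitinates the late endosomal GTPase Rab7 in human cells, lies on the minus strand of chromosome 11 (84984437 to 85140281). Its 5 peaks lay at 563 to 1733.5 nt before the 3′ end of a gene of 155845 nt, and they did not touch each other. The strongest, at 84985402 to 84985565, had 4.07, and the others had 3.59, 3.32, 3.24 and 3.04. Usp6nl, on the plus strand of chromosome 2 (6322757 to 6448296), had 4 peaks at 2477 to 6035.5 nt. The one nearest to the 3′ end, at 6445764 to 6445874, was the strongest with 3.83, and the others had 3.35, 3.05 and 3.01.

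Usp45 and Usp10, like Usp46, held a single peak. In Usp45, which encodes a deubiquitinase of the DNA repair nuclease subunit Ercc1 in human cells, it was on chromosome 4 at 21836948 to 21837025, 885.5 nt before the 3′ end, with a log2 enrichment of 3.57 and a −log10 p of 4.83. In Usp10, whose protein deubiquitinates p53 and binds the stress granule protein G3bp1, it was on chromosome 8 at 119957220 to 119957399, 250.5 nt before the 3′ end. That peak had 3.21, the lowest strongest value of the 9 genes, but a −log10 p of 9.85 and a width of 180 nt. In these 3 genes the call rests on 1 interval each.

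**Figure D4:**
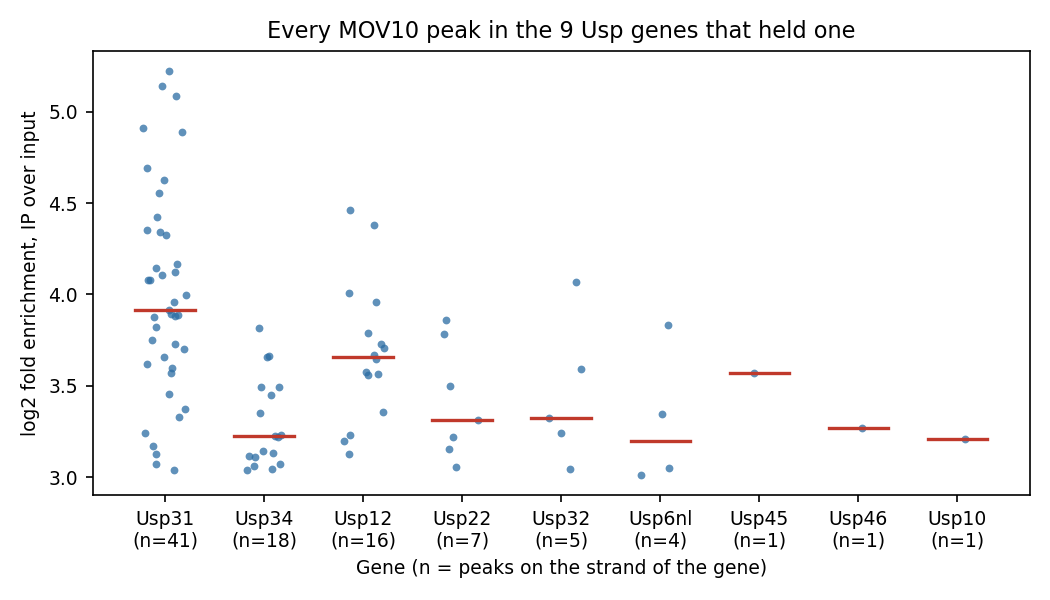
The log2 enrichment (immunoprecipitate over input) of every peak in the 9 Usp genes with strand-matched peaks, with the median of each gene as a red line and the number of peaks under each name. Points are shifted sideways for legibility. Usp31 has a median of 3.91 and the 18 peaks of Usp34 a median of 3.22.

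Outside Usp34, the family's peaks were close to the 3′ end of their genes. In the last 5 kb lay 68 of the 94 Usp peaks (72.3%), against 87.9% over all coding genes. With Usp34 left out the share was 63 of 76 (82.9%), and the other 13 peaks, 11 in Usp31 and 2 in Usp6nl, all lay within 6061 nt. Within 2 kb lay 40 Usp peaks (42.6%), against 61.9% over all coding genes. The median distance was 2282.75 nt for Usp peaks and 1487.75 nt for all coding genes. Peaks within 5 kb of the 5′ end numbered 0 of 94 in the Usp genes, against 299 of 11952 (2.50%) over all coding genes. In a gene shorter than 5 kb every peak lies within 5 kb of both ends. The coding genes include such cases, as Hnrnpa0 with 11 peaks in a span of 2678 nt. The shortest Usp gene with a strand-matched peak spans 23279 nt. The part of gene length in the differences at either end was not tested. All 7 peaks of Usp22, all 5 of Usp32 and 12 of 16 of Usp12 lay in the last 2 kb, whereas in Usp31 12 of 41 did and in Usp6nl 0 of 4.

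**Figure D5:**
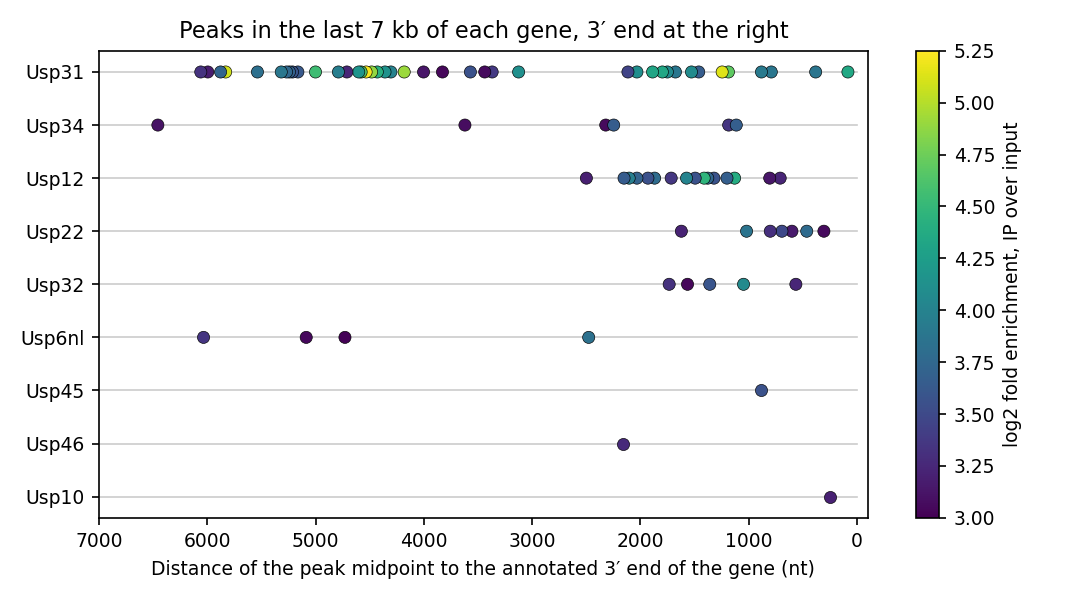
Positions of peak midpoints in the last 7 kb of each Usp gene, in nt from the annotated 3′ end (right), coloured by log2 enrichment (immunoprecipitate over input). Usp12, Usp22 and Usp32 have all their peaks within 2498.5 nt, Usp31 reaches 6061 nt, and 12 further peaks of Usp34 lie beyond the left edge.

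No strand-matched peak was listed for 47 Usp genes. They included the 3 genes of proteasomal and free ubiquitin chains, namely Usp14, which works on the proteasome, Usp5, which disassembles unanchored chains, and its relative Usp13. Of 10 genes grouped under p53, DNA damage and the cell cycle, Usp10 held 1 (10%), near the 8.22% of all coding genes, while Usp7, the deubiquitinase of p53 and Mdm2, and Usp2, Usp4, Usp11, Usp24, Usp28, Usp37, Usp47 and Usp48 had none. Of 9 histone and transcription genes, Usp22 held peaks (11.1%, likewise near that share), and Usp3, Usp16, Usp21, Usp27x, Usp42, Usp44, Usp49 and Usp51 did not. Of 7 genes of membrane traffic, 2 held peaks (28.6%), and Usp8, Usp9x, Usp19, Usp20 and Usp33 had none. Of 5 genes of signalling and innate immunity, Usp34 held peaks (20%), and Usp15, Usp18, Usp25 and Usp38 had none. Usp30 and Usp35 of mitochondria had none either. Of the 3 partner-activated genes, Usp12 and Usp46 held peaks (66.7%), and of 4 genes grouped under no such role, Usp31 and Usp45 did (50%). With 2 to 10 genes per group and no test run, none of these shares, 0 included, is read as different from 8.22%.

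The 9 genes grouped under germ line, Usp9y, Usp26, Usp29, Usp50 and the 5 Usp17-like genes, also had no peak. With 9 genes this cannot be told apart from the 8.22% of all coding genes, and the Usp17-like genes span only 2327 to 9510 nt. No peak was listed either for Usp36 of the nucleolus, the splicing factor gene Usp39, Usp40, Usp43, and Usp53 and Usp54, whose proteins were long regarded as inactive. Members without a peak had a median span of 40377 nt, against 69686 nt for the 9 with one. The 9 ranged between 23279 and 187376 nt, and 32 of the 47 without a peak were at least as long as the shortest of them. The longest Usp gene, Usp29 with 236662 nt, had none.

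Some Usp genes without peaks adjoin bound transcripts. Within 3 kb outside the span of Usp40 lay 9 peaks, up to a log2 enrichment of 4.73, and all were in Dgkd, a diacylglycerol kinase gene on the plus strand that meets the minus-strand gene Usp40 end to end. Next to Usp42 lay 2 peaks of Cyth3 and next to Usp35 lay 1 of Gab2. Every peak within 3 kb outside a Usp span, those of Metap2 beside Usp44 included, was covered by the span of such a neighbour.

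Members of other deubiquitinase families also held peaks. Of 43 genes in lists of the UCH, OTU, Josephin, JAMM, MINDY and ZUP1 families and other Usp-fold genes, 4 held strand-matched peaks (9.30%), against 8.22% of all coding genes. Otud4, an OTU-family deubiquitinase, held 12 peaks at 173.5 to 2816 nt before the 3′ end, with a strongest log2 enrichment of 4.58. Mindy2 held 2, the stronger at 4.20. Josd1 and Otub1 held 1 each, at 3.71 and 3.31. The 4 UCH genes, the 12 JAMM genes and Cyld, Uspl1 and Pan2 had none.

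Among 15 genes of partners and substrates of Usp proteins, 3 held peaks (20%), against 8.22% of all coding genes. The list was written with earlier results of these data known, so no excess can be read from these shares. Atxn7l3, the SAGA subunit that activates Usp22, held 14 peaks at 93.5 to 2035.5 nt before the 3′ end, up to 4.36, against 7 peaks up to 3.86 in Usp22. Mdm2, the ubiquitin ligase of p53 and a substrate of Usp7, held 1 at 3.07 with a −log10 p of 10.9. G3bp2, of the stress granule protein family that Usp10 binds, held 1 at 3.31. The 3 ubiquitin-activating enzyme genes Uba1, Uba6 and Uba7 had no peak.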

How the data were processed

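MOV10-bound RNA was measured by eCLIP in N2A cells, with 2 immunoprecipitate and 2 input libraries. The values analysed were 1 deposited peak list of the series, without a header. The first of its value columns was taken to hold the authors' −log10 p per peak, and the other the deposited log2 fold of immunoprecipitate over input. This was inferred from the ranges of both columns and the usual layout of eCLIP peak files, and positions do not depend on it. The name of the list carries the term IDR, a filter for peaks that recur between replicates, but its settings are not given. Software and cutoffs are not stated in the sources used here either. The lowest values in the list were a log2 enrichment of 3.001 and a −log10 p of 3.005. Per the submitters' processing notes, the builds were mm10 and GRCm38.p6. Whether replicates came from separate cultures is not given in the labels.

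Starts were converted to count from 1. Gene spans came from a RefSeq GRCm38.p6 table, and strands, for 43 of the 56 Usp genes, from a RefSeq promoter table of that build. A gene without a strand took that of its peaks. Distances run from the peak midpoint to the annotated gene end. The peak assignment was run in Python 3.11.15 with pandas 2.3.3. It recovered every gene and distance in simulated data, in which genes did not overlap and each peak lay on its gene's strand. That check therefore does not cover overlapping genes. Reading peaks by strand was added after the data had been seen. No test was run, since each peak has 1 value over all libraries. Members, lists and groups of roles were chosen with earlier results of these data known. All Usp genes with a peak were named, with positions of the strongest peak for genes with 5 or more peaks and the 5 genes with the strongest peaks. Further positions were chosen after their values were seen. Sites were not read as sequence, since no genome was used here. Alternatives varied the assignment, the peak thresholds, the merging of touching peaks and the window. A further gene list is not reported here.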

Additional observations from a re-analysis of the deposited data

How the results depend on the processing

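By midpoint alone, 11 Usp genes held 97 peaks, and the median strongest log2 enrichment was 3.83. Its exact 95% interval over genes, 3.27 to 4.46, is wide and treats the 11 genes as a random sample. In the last 5 kb of the gene lay 70.1% of peaks (exact 95% interval 59.96 to 79.0, which treats neighbouring peaks as independent). Peaks with a log2 enrichment of at least 4 left 4 genes and 23 peaks, with 87.0% within 5 kb. Among the 4 was Usp37, through a peak that lay on the strand of Cnot9. By strand that cutoff left 22 peaks, in Usp31, Usp12 and Usp32. The median strongest value of the 4 genes, 4.27, is held at 4 or above by the cutoff, so it is no check on 3.83. Over all 97 peaks the share was 41.2% within 2 kb and 84.5% within 10 kb. Read by strand, a choice made after seeing the data, 9 genes held 94 peaks. Without Usp31 that became 53 peaks, and without Usp34 the share within 5 kb was 82.9%. Single-gene peaks gave 9 genes and 84 peaks, a −log10 p of at least 5 gave 8 genes and 80 peaks, and merging touching peaks gave 69 intervals. Further alternatives were any overlap with the span, the set without Usp6nl, and spans of at least 15 kb alone. Under all these alternatives the remaining counts stayed within 1.5 times, and the remaining medians and shares within the intervals above. The interval of the median leaves out only the lowest and the highest of the 11 gene values. A median over nearly the same genes could hardly leave it, so staying within it is a weak check. No paired analysis was possible because the list has 1 value per peak over all libraries, and for the same reason no replicate could be left out.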
